A study of Bos taurus with 32 samples.

Results

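BTG4 and CNOT1, which act together in the removal of maternal mRNA, were followed through the m6A sites of their own transcripts in bovine oocytes and preimplantation embryos. All lines of the deposited site table with either gene symbol were taken, which gave 29 sites in BTG4 and 81 in CNOT1 among 65535 listed sites. N6-methyladenosine (m6A) is a methyl mark on adenosines of RNA, and m6A-SAC-seq marks it with an allyl group that is detected as mutations in the cDNA. The 8 stages were germinal vesicle (GV) oocytes, which are immature, metaphase II (MII) oocytes after in vitro maturation, embryos of 2, 4, 8 and 16 cells, morulae, and blastocysts, all from in vitro culture of Bos taurus. Each stage has 4 libraries of total RNA, 2 of an input arm and 2 of a treated arm, made from 200 cells per stage and replicate. Oocytes came from ovaries of slaughtered cattle and sperm from frozen Holstein semen, and the labels give neither age nor number of animals. The deposited table holds 1 score per site and stage, so no value below has a replicate error, no test across samples could be made, and read depth is unknown.

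Maternal mRNAs stored in the oocyte are cleared between meiotic maturation and the start of embryonic transcription. The CCR4-NOT complex shortens their poly(A) tails, and CNOT1 is the scaffold on which its nuclease and regulatory subunits assemble. BTG4 is an adaptor of the BTG/TOB family that joins the complex to maternal transcripts, and mouse oocytes without it fail to clear them. BTG4 is known as an oocyte gene, whereas CNOT1 serves mRNA turnover in cells of most kinds. In mRNA, m6A is best known in the DRACH sequence context and is itself recognised by reader proteins, some of which recruit CCR4-NOT.

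Scores of 0.1 or more were taken as calls, since every listed site reaches this value in at least 1 stage. GV oocytes carried 24 called sites in BTG4 and 59 in CNOT1. Both genes lie on the minus strand of chromosomes where the table lists the sites called at GV and those first called at MII, which number 5 in BTG4 and 22 in CNOT1. No listed site of either gene was first called after MII, so later stages are described at these 110 sites. Sites gained after MII therefore cannot be seen, and later calls are all at sites already called in oocytes.

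The sites that the results turn on are shown by the deposited bases around them, 5' to 3', with the scored adenosine in capitals. They were chosen because they are called at the most stages of their gene, have the highest scores, or stand for the region with the clearest stage pattern.
BTG4 coding site 21787641: ggAca
BTG4 3' untranslated site 21787459: agAtc
BTG4 coding site 21791663: agAgt
BTG4 coding site 21802239: tgAtg
CNOT1 coding site 26353866: agAcg
CNOT1 coding site 26350713: agAcg
CNOT1 coding site 26308431: ggAca
CNOT1 coding site 26362169: ggAca
CNOT1 5' untranslated site 26362376: agAgt
CNOT1 5' untranslated site 26362354: agAac
CNOT1 3' untranslated site 26304760: agAtg

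In position the genes differed mostly at their ends. BTG4 (ENSBTAG00000034346) spans positions 21786650 to 21802818 of chromosome 15 by its sites, and CNOT1 (ENSBTAG00000020782) spans 26304760 to 26387639 of chromosome 18, in a genome build that neither labels nor table name. Of the 24 BTG4 sites called at GV, 11 were in the 3' untranslated region (45.8%, exact 95% interval 25.6 to 67.2), 12 in coding sequence and 1 in the 5' untranslated region. Of the 59 CNOT1 sites, 53 were coding (89.8%, interval 79.2 to 96.2), 5 were in the 5' and 1 was in the 3' untranslated region. Over all GV-called sites with a known region, 71.0% were coding and 22.9% lay in 3' untranslated regions. The BTG4 3' untranslated sites, 14 with those first called at MII, fell within 844 bases, and 10 of them lay beyond the end of the RefSeq gene in ARS-UCD2.0, so their assignment to BTG4 rests on the authors' annotation. The 5 GV-called 5' untranslated sites of CNOT1 fell within 93 bases. Neighbouring sites can be read by the same fragments, and 15 adjacent pairs in BTG4 and 32 in CNOT1 were at most 50 bases apart.

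Few sites of either gene had the consensus context. DRACH surrounded 2 of the 24 BTG4 sites (8.33%, interval 1.03 to 27.0) and 12 of the 59 CNOT1 sites (20.3%, interval 11.0 to 32.8), against 34.2% of all GV-called sites with a listed motif. By the 3 central bases, GAA was the most frequent in BTG4 with 10 sites, followed by GAT with 9, GAG with 3 and GAC with 2. In CNOT1 GAT led with 27 sites, before GAC with 16, GAA with 11 and GAG with 5. Over all GV-called sites with a listed motif, GAC made up 39.4%, GAT 30.7%, GAG 13.1% and GAA 12.5%. The GAA share was 41.7% in BTG4 (interval 22.1 to 63.4) and 18.6% in CNOT1 (interval 9.69 to 30.9). Among the 12 DRACH sites of CNOT1 the later calls numbered 3 at MII, 0 in 2-cell, 4-cell and 8-cell embryos, 2 in 16-cell embryos, 2 in morulae and 5 in blastocysts. The percentages for all DRACH sites were 45.3, 8.67, 25.8, 11.0, 7.69, 5.32 and 9.09 in this order. How many calls outside DRACH are errors is unknown.

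GV scores were low in BTG4 and within the middle range of genes in CNOT1. The median score was 0.146 in BTG4 (quartiles 0.116 and 0.168) and 0.186 in CNOT1 (quartiles 0.149 and 0.251), against 0.216 over all GV-called sites. Of 1889 protein-coding genes with at least 10 GV-called sites, 1800 had a higher median than BTG4 and 1161 a higher median than CNOT1. The medians of these genes had a median of 0.198 and quartiles of 0.171 and 0.243. The highest score of each gene at GV was at a GGACA site, 0.699 at 21787641 in BTG4 and 1.31 at 26308431 in CNOT1. GGACA sites of the whole table had a median GV score of 1.45, and without them the medians were 0.145 in BTG4, 0.184 in CNOT1 and 0.211 over all sites.

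**Figure D1:**
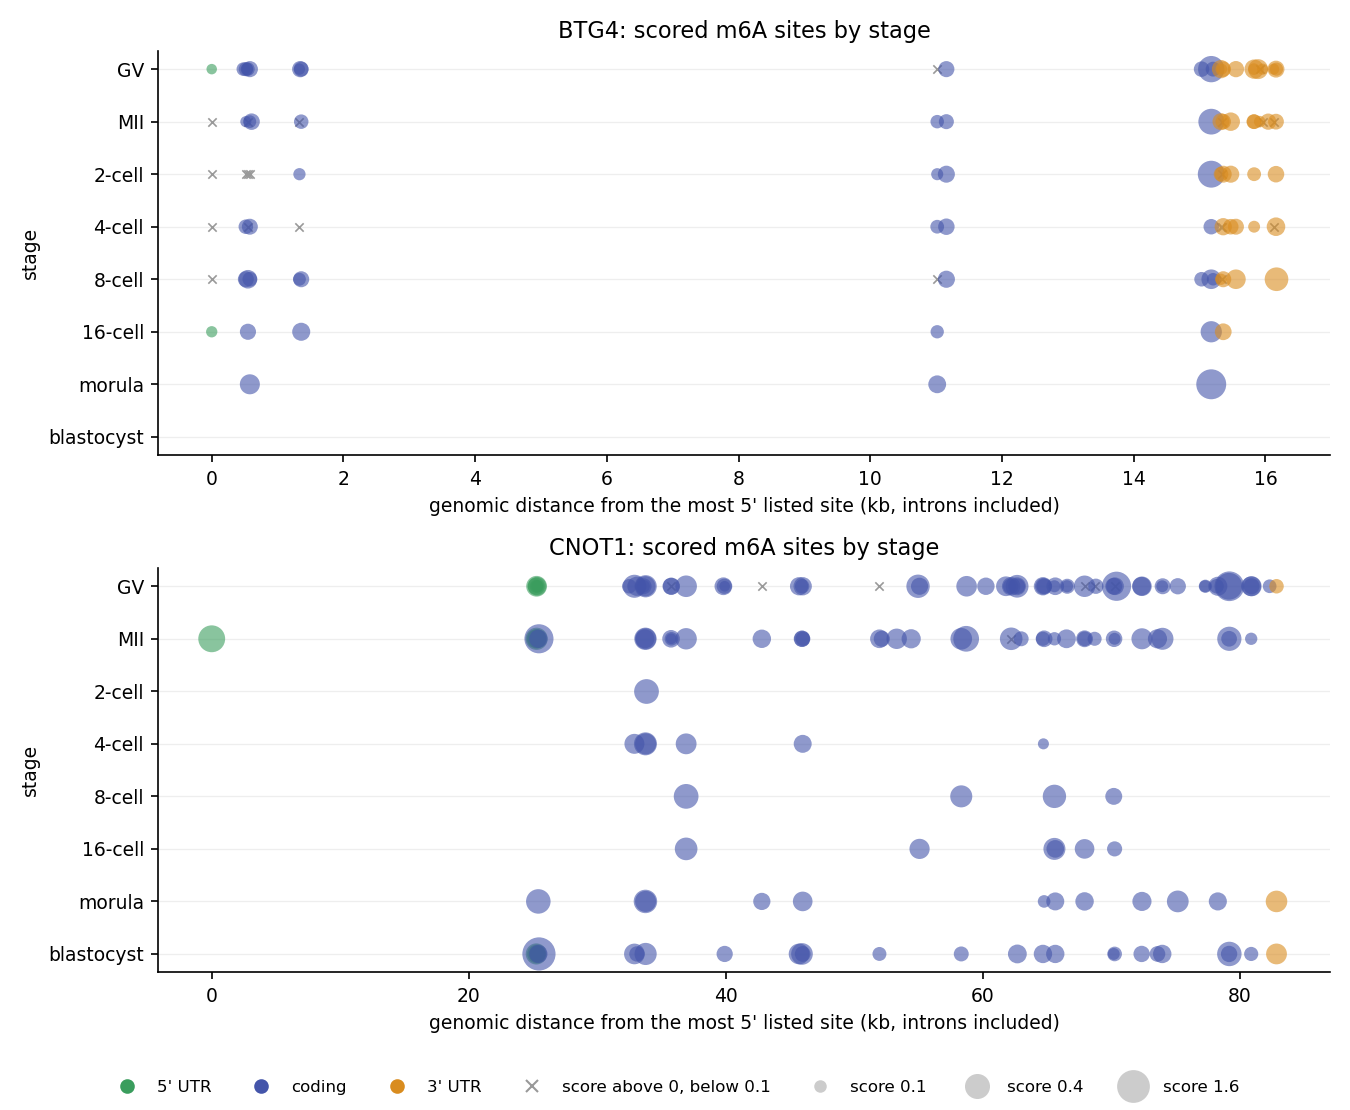
Scored sites of BTG4 (top) and CNOT1 (bottom), with genomic distance from the most 5' listed site in kb on the x axis and the 8 stages on the y axis; circle area grows with log2 of the score, colour gives the region, and crosses are scores above 0 but below 0.1. BTG4 circles thin out after the 8-cell stage to 0 in blastocysts, while CNOT1 has 1 circle in 2-cell embryos and 27 in blastocysts.

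Over the later stages the calls of the genes took different courses. BTG4 had most of its calls from GV to the 8-cell stage, and none in blastocysts. CNOT1 had few calls in cleavage embryos and more in morulae and blastocysts. The number of GV-called BTG4 sites called again was 10 at MII, 7 in 2-cell, 8 in 4-cell, 13 in 8-cell, 5 in 16-cell embryos, 2 in morulae and 0 in blastocysts, of 24. For CNOT1 these numbers were 18, 1, 6, 3, 5, 10 and 19 of 59 in the same order.

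At the 2-cell stage BTG4 was at 29.2% of its GV-called sites (interval 12.6 to 51.1) and CNOT1 at 1.69% (interval 0.0429 to 9.09), beside 7.39% of all GV-called sites. Only 90 of the 1889 genes had a higher percentage than BTG4, whereas 1034 were above CNOT1. The 4-cell stage gave 33.3% for BTG4 (interval 15.6 to 55.3) and 10.2% for CNOT1 (interval 3.82 to 20.8), with 22.7% over all sites. At this stage 546 of the 1889 genes were above BTG4 and 51 tied with it, while 1403 were above CNOT1. The difference of BTG4 minus CNOT1 was 27.5 percentage points in 2-cell embryos (Newcombe 95% interval 11.5 to 47.5) and 23.2 in 4-cell embryos (4.67 to 43.8). At the 8-cell stage BTG4 was at 54.2% (interval 32.8 to 74.4), CNOT1 at 5.08% (interval 1.06 to 14.1) and all sites at 9.32%. This difference was 49.1 points (28.0 to 67.3), and 21 points with a minimum score of 0.2, which left 4 BTG4 and 25 CNOT1 sites. At this stage 32 genes were above BTG4 and 1014 above CNOT1.

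BTG4 was still above CNOT1 in 16-cell embryos and below it in morulae and blastocysts. BTG4 was at 20.8% of its GV-called sites (interval 7.13 to 42.2) and CNOT1 at 8.47% (interval 2.81 to 18.7) in 16-cell embryos, where 6.01% of all GV-called sites were called. In morulae BTG4 was at 8.33% (interval 1.03 to 27.0) and CNOT1 at 16.9% (interval 8.44 to 29.0), beside 4.42%. The difference was 12.4 points in 16-cell embryos (-2.87 to 32.6) and -8.62 in morulae (-21.6 to 10.4). In blastocysts BTG4 had 0 of 24 sites (interval 0 to 14.2) and CNOT1 19 of 59, or 32.2% (interval 20.6 to 45.6), beside 7.64%. The difference in blastocysts was -32.2 points (-44.9 to -14.9). A blastocyst percentage of 0 was shared by 1205 other genes of the 1889, while 141 genes were above CNOT1. These intervals cover the counting of sites only, and sites of 1 transcript are not independent. With a minimum score of 0.2, BTG4 had 4 GV sites left, and the difference of BTG4 minus CNOT1 turned from 11.2 to -7 percentage points at MII, from 23.2 to -20 in 4-cell embryos and from -8.62 to 1 in morulae.

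**Figure D2:**
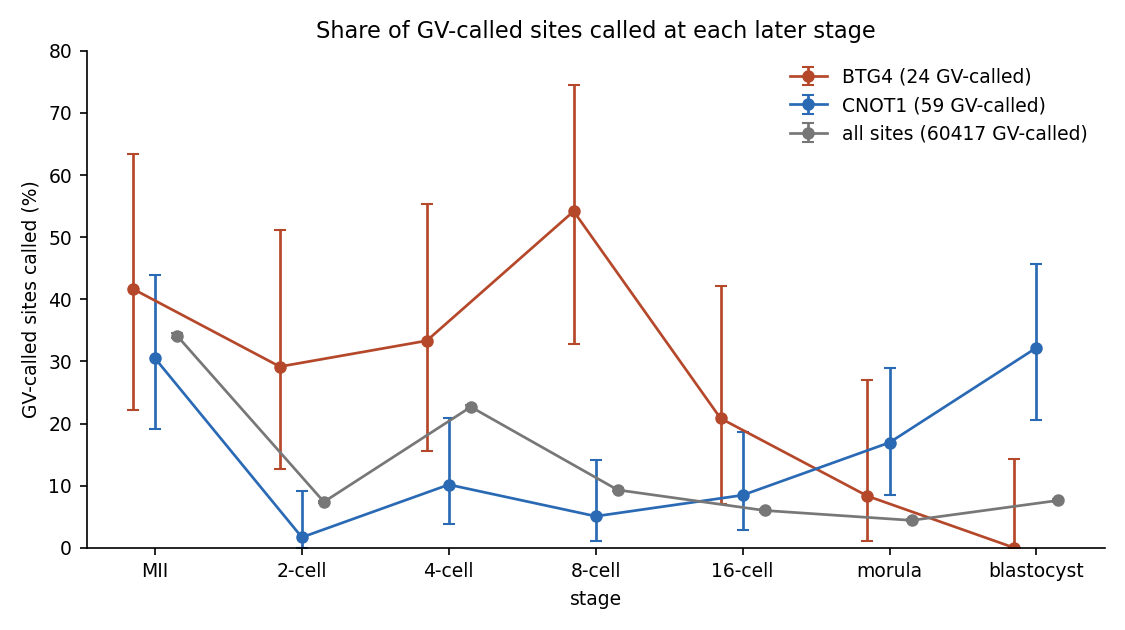
Percentage of GV-called sites called again (y axis) at each later stage (x axis) for BTG4, CNOT1 and all sites, with exact 95% binomial intervals as bars. BTG4 peaks at 54.2% in 8-cell embryos and ends at 0%, and CNOT1 goes from 1.69% in 2-cell embryos to 32.2% in blastocysts.

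Sites that were not called differed in kind between the genes. At the 2-cell stage 5 of the 17 uncalled BTG4 sites had a score above 0 and 12 were listed at 0, and in 4-cell embryos 6 had a score above 0 and 10 were at 0. For CNOT1 all 58 uncalled sites in 2-cell and all 53 in 4-cell embryos were listed at 0. Most uncalled GV sites of the whole table were also at 0, 55681 of 55950 in 2-cell and 44975 of 46716 in 4-cell embryos. In this CNOT1 was like most of the table, and BTG4 had more scores between 0 and 0.1. From the 16-cell stage on no uncalled GV site of either gene had a score above 0. The table does not say whether 0 means no methylation or no estimate. In these bulk libraries less methylation, less RNA per cell and fewer cells with the RNA cannot be told apart, and neither can stage and the amount of RNA that 200 cells gave.

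How finely the scores were graded also differed. Among GV-called sites 53 of 59 CNOT1 scores were identical to that of another site with the same motif at that stage, against 4 of 24 in BTG4 and 74.8% of all such sites. At the 8-cell stage these numbers were 3 of 4 in CNOT1 and 1 of 13 in BTG4, with 47.6% over all sites, and in blastocysts 6 of 27 CNOT1 scores recurred, with 36.9% over all. Scores could also recur between stages, which these numbers do not count. The CNOT1 sites 26353866 in 2-cell and 26350713 in 8-cell embryos, which have the same motif, both had a score of 0.534. Read numbers are not in the table, and the part of this grading in the differences between the genes was not tested.

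**Figure D3:**
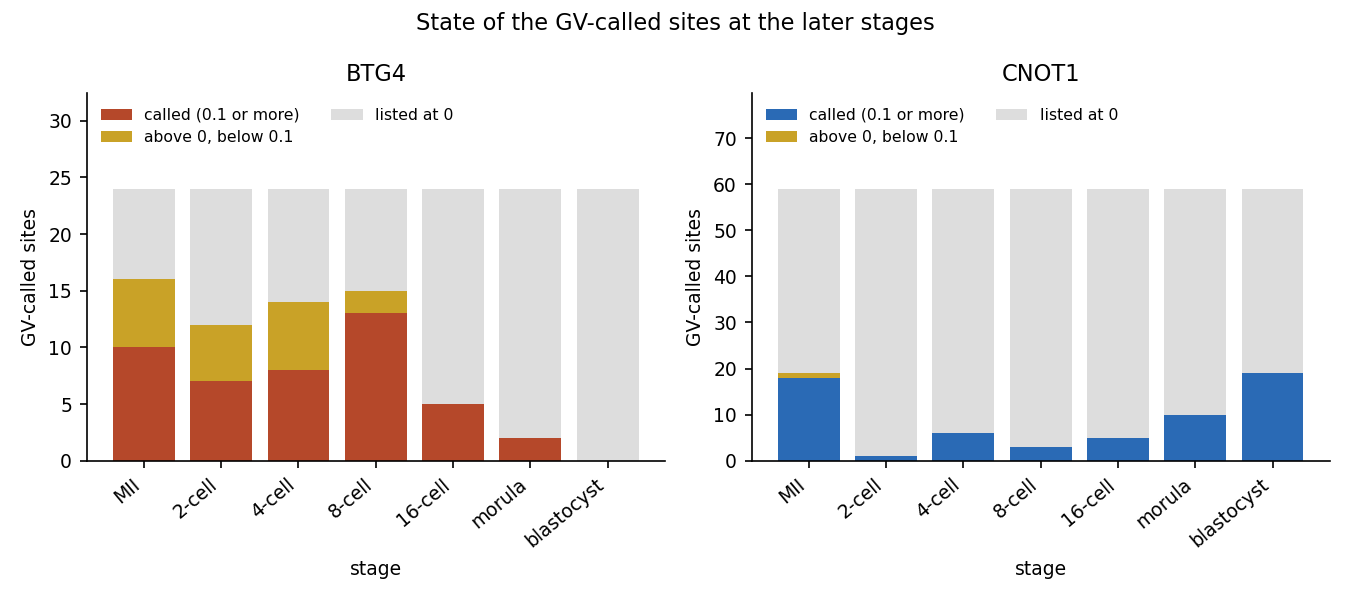
Number of GV-called sites (y axis) of BTG4 (24) and CNOT1 (59) at each later stage (x axis) that were called, had a score above 0 but below 0.1, or were listed at 0. BTG4 has 6 sites of the middle kind at MII and 6 in 4-cell embryos, and CNOT1 has 1 at MII and none later.

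Meiotic maturation, from GV to MII, can be compared in both directions because new MII sites of both genes are listed. BTG4 had 24 sites at GV and 15 at MII, a ratio of 0.625, and CNOT1 had 59 and 40, a ratio of 0.678. For chromosomes 10 to 19, minus strand, where both stages are listed, the ratio over all sites outside large-subunit ribosomal protein genes was 0.714. Both stages shared 10 BTG4 sites, which is 41.7% of the GV and 66.7% of the MII list, and 18 CNOT1 sites, which is 30.5% of the GV and 45% of the MII list. Over all GV-called sites 34.1% were called at MII, a value inside the exact intervals of both BTG4 (22.1 to 63.4) and CNOT1 (19.2 to 43.9). The difference of BTG4 minus CNOT1 was 11.2 percentage points (Newcombe interval -10.2 to 33.2).

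At the shared sites scores were mostly lower at MII in BTG4 and went both ways in CNOT1. The log2 ratio of the MII score to the GV score had a median of -0.17 in BTG4 (quartiles -0.33 and -0.08), with 1 of 10 sites higher at MII, and 0.07 in CNOT1 (quartiles -0.61 and 0.28), with 10 of 18 higher, where 41.1% of all shared sites were higher at MII. MII-only sites made up 5 of the 15 MII calls in BTG4 and 22 of 40 in CNOT1, beside 53.2% of all MII calls in the same strand and chromosomes. Of the MII-only sites 2 of 5 in BTG4 and 6 of 22 in CNOT1 had a GV score above 0 that missed the minimum. Of the 5 in BTG4, 2 were called again in 2-cell embryos and 2 in 4-cell embryos, where 2.75% and 13.7% of such sites were called, 0 in 8-cell embryos, and 1 each in 16-cell embryos and morulae. Of the 22 in CNOT1, 0 were called again in 2-cell and 0 in 4-cell embryos, beside the same 2.75% and 13.7%. In 8-cell and 16-cell embryos 1 each was called again and in morulae 2, beside 3.73%, 2.66% and 2.04% of such sites.

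**Figure D4:**
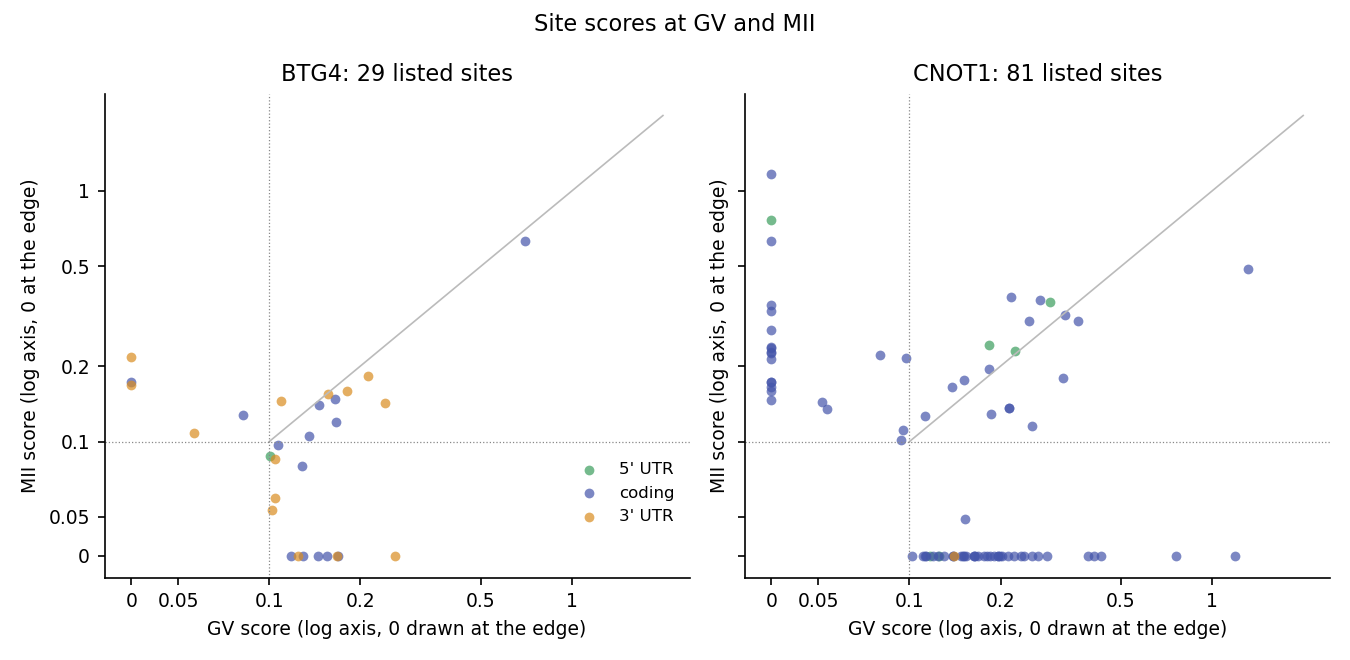
MII score against GV score of each listed site of BTG4 (29 sites) and CNOT1 (81 sites), on log axes with 0 drawn at the edge; dotted lines mark the minimum of 0.1, the grey line equality, and colour the region. CNOT1 has 40 GV-called sites at an MII score of 0, up to a GV score of 1.19, and 16 MII-called sites at a GV score of 0.

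In BTG4 the coding GGACA site 21787641 was called at 7 stages, more than any other site of the gene. Its score was 0.699 at GV, 0.633 at MII, 0.773 in 2-cell, 0.155 in 4-cell, 0.251 in 8-cell, 0.313 in 16-cell embryos and 1.37 in morulae, and 0 in blastocysts. It was lowest in 4-cell embryos among the stages where it was called. The 3' untranslated site 21787459 was steadier, at 0.156, 0.155, 0.180, 0.188, 0.164 and 0.177 from GV to the 16-cell stage, and 0 in morulae and blastocysts. The coding site 21791663 had 0.165, 0.148, 0.183, 0.172 and 0.185 from GV to the 8-cell stage and 0 thereafter. These 3 sites were the only BTG4 sites called at all of the MII, 2-cell, 4-cell and 8-cell stages. The GGACT site 21787493 missed this by its 4-cell score of 0.0957. The coding site 21802239 had 0.166 at GV, 0.120 at MII, 0.163 in 4-cell embryos, 0.143 in 8-cell embryos and 0.264 in morulae, and was 1 of the 2 GV-called BTG4 sites called in morulae.

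In 8-cell embryos more coding than 3' untranslated sites of BTG4 were called, from few sites and at the minimum of 0.1. Of the 12 coding sites 5 were called at MII, 3 in 2-cell, 4 in 4-cell and 9 in 8-cell embryos. Of the 11 sites in the 3' untranslated region 5 were called at MII and 4 at each of the 2-cell, 4-cell and 8-cell stages. In 16-cell embryos 3 coding sites, 1 site of the 3' and 1 of the 5' untranslated region were called, and in morulae 2 coding sites. From MII to morula, the percentages of all GV-called coding sites were 34.2, 7.09, 23.9, 9.79, 5.91 and 3.91. Those of all 3' untranslated sites were 36.6, 8.27, 21.0, 7.89, 5.57 and 4.97. The excess of BTG4 over these values in 8-cell embryos thus stood in both regions, with 75% of its coding and 36.4% of its 3' untranslated sites. Of the BTG4 sites called at GV and in 8-cell embryos, 4 were called at none of the stages between. The most 3' site, 21786650, was 1 of these, with a score of 0.124 at GV and 0.448 in 8-cell embryos. With a minimum score of 0.2, 4 BTG4 sites were called in 8-cell embryos. They were the coding sites 21802268 and 21787641 and the 3' untranslated sites 21787266 and 21786650, so the regions no longer differed.

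Where BTG4 sites were called, their scores did not go down with the number of calls. The median score of called sites was 0.146 at GV, 0.148 at MII, 0.173 in 2-cell, 0.159 in 4-cell, 0.164 in 8-cell and 0.171 in 16-cell embryos. The median log2 ratio to GV at shared sites was 0.17 in 8-cell embryos, with 8 of 13 sites higher, and 61.1% of all sites shared by these stages were higher. Scores above GV were found at 4 of 7 shared sites in 2-cell embryos, 4 of 8 in 4-cell embryos, 4 of 5 in 16-cell embryos and 2 of 2 in morulae. Over all sites these percentages were 66.8, 45.3, 61.6 and 62.5. The minimum of 0.1 limits how low a called score can be.

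In CNOT1 no site was called at more than 6 stages. The coding site 26353866, which was the single call in 2-cell embryos, had scores of 0.361 at GV, 0.303 at MII, 0.534 in 2-cell, 0.310 in 4-cell embryos, 0.303 in morulae and 0.356 in blastocysts, and 0 in 8-cell and 16-cell embryos. The coding site 26350713 had 0.327 at GV, 0.319 at MII, 0.295 in 4-cell, 0.534 in 8-cell and 0.384 in 16-cell embryos, and 0 elsewhere. Of the 59 GV-called sites 26 were called at GV only (44.1%), against 7 of 24 in BTG4 (29.2%) and 52.0% of all GV-called sites. Calls at 4 or more stages were found for 7 CNOT1 sites (11.9%) and 9 BTG4 sites (37.5%), against 11.0% of all sites.

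The blastocyst calls of CNOT1 included sites with and without calls in cleavage embryos. From the 2-cell to the 16-cell stage 48 of the 59 GV-called sites had no call, and 14 of these 48 were called in blastocysts. Of the 11 sites with a call between these stages, 5 were called in blastocysts. Sites called in blastocysts and at no stage from 2 to 16 cells made up 23.7% of the CNOT1 sites called at GV and 2.72% of all GV-called sites. Of these 19 GV-called sites with a blastocyst call, 8 were also called at MII and 4 in morulae. A further 8 of the 22 sites first called at MII were called in blastocysts (36.4%, interval 17.2 to 59.3), where 3.80% of such sites on the minus strand of chromosomes 10 to 19 were called. Blastocysts thus had 27 of the 81 listed sites.

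The 5' untranslated sites of CNOT1 were called at GV, MII and the blastocyst stage alone. The site 26362376 had scores of 0.184 at GV, 0.242 at MII and 0.308 in blastocysts, and 0 at the 5 stages between them. The neighbouring site 26362354 had 0.291 at GV, 0.360 at MII and 0.226 in blastocysts. Of the 5 GV-called 5' untranslated sites 3 were called at MII, 4 in blastocysts and 0 from the 2-cell to the morula stage, while of all GV-called 5' untranslated sites 32.3% were called at MII and 4.72% in blastocysts. From 2-cell embryos to morulae the percentages of all 5' untranslated sites were 6.91, 22.3, 10.8, 4.92 and 3.52. Of the 53 coding sites of CNOT1, 14 were called in blastocysts (26.4%), beside 7.44% of all coding sites. The single 3' untranslated site, 26304760, had a score of 0.140 at GV, 0.327 in morulae and 0.295 in blastocysts, where 8.35% of all 3' untranslated sites were called.

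Scores of CNOT1 in blastocysts were above those at GV at some shared sites and below them at others. The log2 ratio of the blastocyst score to the GV score had a median of -0.02 over 19 sites (quartiles -0.45 and 0.55), with 9 of 19 higher in blastocysts, against 62.3% of all sites shared by these stages. The GGACA site 26308431 had 1.31 at GV, 0.490 at MII and 0.508 in blastocysts. Another GGACA site, 26362169, was at 0 at GV, 1.17 at MII and 2.72 in blastocysts, the highest score of CNOT1 at any stage. Further GGACA sites at 26317213 and 26308461, with GV scores of 1.19 and 0.758, were listed at 0 at every later stage.

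Other genes of deadenylation and decay are described by their counts alone, and their likeness to BTG4 or CNOT1 was not tested. Of 46 listed genes, 39 had GV-called sites, 389 in all, and 29 of the 39 had no blastocyst call, while 77.8% of 5997 protein-coding genes with GV-called sites had none. All 13 other deadenylase genes had GV-called sites, 156 together. Of these 37.2% were called at MII, 7.05% in 2-cell, 29.5% in 4-cell and 12.2% in 8-cell embryos. The later percentages were 1.28 in 16-cell embryos, 2.56 in morulae and 1.92 in blastocysts. Over all GV-called sites the percentages from MII to blastocyst were 34.1, 7.39, 22.7, 9.32, 6.01, 4.42 and 7.64. The scaffold CNOT1 was below the sum of the 13 other deadenylase genes in 4-cell embryos and above it in blastocysts. CNOT6L, a nuclease subunit with a role in maternal mRNA clearance in mouse, had 38 sites at GV, 19 at MII, 17 in 4-cell and 8 in 8-cell embryos, and 0 from the 16-cell stage on. CNOT7, another nuclease subunit and a binding partner of BTG/TOB proteins, had 26 at GV, 10 at MII, 5 in 8-cell embryos and 1 in blastocysts. CNOT3, a regulatory subunit, and CNOT4, a ubiquitin ligase, had 18 and 16 sites at GV and 0 from the 16-cell stage on. Among the 1889 genes with at least 10 GV-called sites the median percentage was also 0 in 16-cell embryos, morulae and blastocysts. CNOT11 had 15 at GV, 10 at MII and 1 in blastocysts, and PAN3, a subunit of the PAN2-PAN3 deadenylase, had 10, 1 and 0.

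Relatives of BTG4 carried few sites. BTG1 and TOB1 had 3 GV-called sites each and TOB2 had 2, while BTG2 and BTG3 had none. Together these had 0 calls in 2-cell, 4-cell and 8-cell embryos, where BTG4 was at 29.2%, 33.3% and 54.2%, and their 8 sites limit the comparison. BTG1 was called at 2 sites in 16-cell embryos and at 1 in morulae and in blastocysts.

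Among RNA-binding genes, CPEB1 also had many calls in cleavage embryos. CPEB1, which controls cytoplasmic polyadenylation of maternal mRNA, had 27 sites at GV, 14 at MII, 12 in 2-cell, 13 in 4-cell, 12 in 8-cell and 5 in 16-cell embryos, and 0 in morulae and blastocysts. ZFP36L1, which binds AU-rich elements, had 35 at GV and 20 at MII, but 3 in 2-cell and 3 in 8-cell embryos. TNRC6B, which links the microRNA machinery to CCR4-NOT, had 30 at GV, 15 at MII, 4 in 2-cell, 12 in 4-cell, 5 in 8-cell and 0 in 16-cell embryos. The repressor gene PUM2 had 14 at GV and 2 at MII and in 4-cell embryos. The 10 genes of this group with GV-called sites had 118, of which 16.1% were called in 2-cell, 35.6% in 4-cell and 17.8% in 8-cell embryos, against 7.39%, 22.7% and 9.32% of all GV-called sites. CPEB1 alone gave 12 of the 19 calls in 2-cell, 13 of the 42 in 4-cell and 12 of the 21 in 8-cell embryos. No 2-cell call was found in 7 of the 10 genes, and 4 genes had a call in 8-cell embryos. In blastocysts 1 of the 118 was called, or 0.847%, against 7.64% of all.

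Of the 3 poly(A)-binding protein genes, PABPC1 and PABPC4 were called up to the blastocyst, and PABPC1L had 2 GV-called sites and 0 later calls. PABPC1, which coats the poly(A) tail, had 20 sites at GV, 11 at MII, 1 in 2-cell, 8 in 4-cell, 10 in 8-cell, 12 in 16-cell embryos, 10 in morulae and 11 in blastocysts. In 2-cell embryos 1 of the 20 PABPC1 sites was called, against 1 of 59 in CNOT1 and 7.39% of all GV-called sites. In 8-cell embryos 10 of the 20 were called, against 3 of 59 in CNOT1 and 9.32% of all. Blastocysts had calls at 11 of the 20 and at 19 of 59 in CNOT1, beside 7.64% of all. PABPC4 had 17 at GV and between 3 and 4 at each later stage. Of the decapping genes, EDC4 had 10 at GV and 1 in blastocysts, and PATL2, a translational repressor of oocytes, had 22 at GV, 4 at MII, 4 in 2-cell and 1 in 4-cell embryos, and 0 at later stages.

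**Figure D5:**
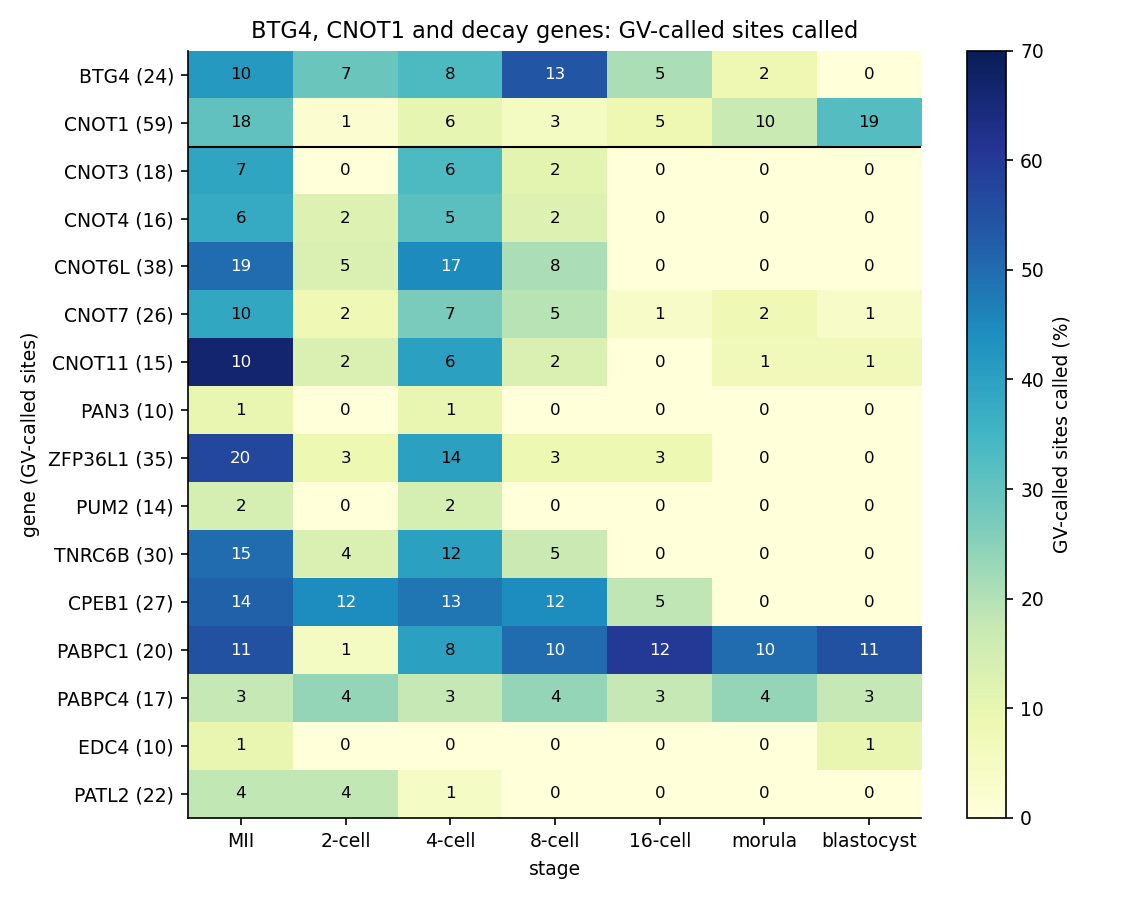
Called GV sites of BTG4, CNOT1 and the 14 listed decay genes with at least 10 GV-called sites (y axis, number of GV-called sites in brackets) at the later stages (x axis); digits are numbers of sites and colour is the percentage of GV-called sites. BTG4 has its highest percentage in 8-cell embryos, CNOT1 has 19 sites in blastocysts, and 9 of the 14 other genes have none there. Of all 1889 protein-coding genes with at least 10 GV-called sites, 63.8% have none in blastocysts.

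The genes most like BTG4 and most like CNOT1 were found by the correlation of their percentages over the 7 later stages. Compared were 1879 other protein-coding genes with at least 10 GV-called sites, without those whose percentages did not vary over these stages. This is a description, with stages as points that share their libraries. DPPA3, a maternal-effect gene, was most like BTG4 (Pearson's r = 0.958, n = 7 stages), with 17 sites at GV, 7 in 2-cell, 11 in 8-cell embryos and 1 in blastocysts. CENPV (r = 0.936) had 10, 4, 7 and 0, and the mitotic cyclin gene CCNB1 (r = 0.930) had 16, 11, 13 and 6 at these stages. Among the genes most like CNOT1, EIF3CL (r = 0.985, n = 7 stages) had 23 sites at GV, 7 at MII, 0 in 2-cell, 1 in 8-cell embryos and 7 in blastocysts. CSE1L, which returns importins to the cytoplasm, had 14, 2, 0, 0 and 2 (r = 0.973). BTG4 and CNOT1 themselves had r = -0.412, and all these values rest on 7 points each.

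Marker genes of the labelled cells were checked once. The oocyte genes GDF9, BMP15 and NLRP5 had 88 GV-called sites together, and ZP3 had none listed. Of the 88, 50.0% were called in 2-cell, 43.2% in 8-cell embryos and 0% in blastocysts, beside 7.39%, 9.32% and 7.64% of all GV-called sites. Cumulus and granulosa markers had 30 GV-called sites, 14 in HAS2 and 16 in STAR, while CYP19A1 and FSHR had none listed. Of the 30, 12 were called at MII, 4 in 2-cell, 9 in 4-cell, 2 in 8-cell embryos and 0 at the later stages. From MII to the 8-cell stage these were 40, 13.3, 30 and 6.67%, beside 34.1, 7.39, 22.7 and 9.32% of all GV-called sites. Of the trophectoderm markers CDX2 had 1 GV site with no later call and KRT8, KRT18 and GATA3 had none. Outside large-subunit ribosomal protein genes, no listed site was first called after MII, so sites gained later cannot be seen. The part of cumulus cells in the values of BTG4 and CNOT1 was not tested.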

How the data were processed

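Library titles give 16 groups of 2 replicates, by stage and arm. Maturation lasted 22 to 23 h, fertilisation 18 h and culture until day 7.5, per the labels' protocols. The submitters' processing notes name Trimmomatic 0.39 and STAR 2.5.3a, and for the site caller, build, annotation and merging of arms and replicates the method is not given in the sources used here. Each score of a site and stage is the authors' deposited value, of unstated scale. Although the table is named for raw counts, only 1 of its scores above 0 is exactly a whole number. Outside large-subunit ribosomal protein genes, 4690 listed sites lack a GV call, all of them on the minus strand and called at MII.

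The 2 genes and the gene lists were chosen with earlier results of these data known. Named genes were BTG4, CNOT1, list genes with at least 10 GV-called sites and the 3 most correlated genes of each, of which 1 is not reported here. List genes with fewer sites, and the sites described, were chosen with values in view. Intervals of shares are exact (Clopper-Pearson, 95%), and those of differences are Newcombe's. Counting was tested on a simulated table of 6000 sites in 60 genes and passed 4 of 4 checks. Gene spans were checked against RefSeq (ARS-UCD2.0). The alternatives took 0.2 as the minimum, every score above 0, DRACH motifs, coding or 3' untranslated sites, or all listed sites as denominator. Calculations ran in Python 3.11.15 with pandas 2.3.3, numpy 2.4.6 and scipy 1.17.1, and plots were drawn with matplotlib 3.10.9.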

Additional observations from a re-analysis of the deposited data

How the results depend on the processing

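Counts and differences depended mainly on the minimum score and on the motifs. At a score of at least 0.2, BTG4 had 4, 2, 1, 1, 4 and 2 called sites from GV to the 16-cell stage, and CNOT1 had 25 at GV, 22 at MII and 14 in blastocysts. The difference of BTG4 minus CNOT1 in the percentage of GV-called sites called again was then -7 percentage points at MII, -20 in 4-cell, 21 in 8-cell embryos and 1 in morulae, from 4 BTG4 sites. With any score above 0, BTG4 had 14 sites in 2-cell and 16 in 4-cell embryos, and the difference was 48.5 points at both stages. With DRACH motifs alone BTG4 had 2, 2, 2, 1, 2, 1 and 1 sites from GV to morula, and CNOT1 had 12, 7, 0, 0, 0, 2, 2 and 7 from GV to blastocyst. The difference was then 75 points at MII, 100 in 2-cell, 50 in 4-cell, 100 in 8-cell, 33.3 in 16-cell embryos and 33.3 in morulae, from 2 BTG4 sites. The log2 ratio of the blastocyst score to the GV score of CNOT1 had a median of 0.47 at DRACH sites, against -0.02 at all its sites. Coding sites alone gave a difference of 69.3 points in 8-cell embryos. Sites of the 3' untranslated region, of which CNOT1 has 1, gave 45.5 at MII and -100 in morulae and in blastocysts. With all listed sites as the denominator the 7 differences moved within their intervals and kept their sign. Fewer sites enter at the higher minimum and at DRACH motifs, and other causes of these shifts were not tested. No paired analysis was possible because the columns carry neither arm nor replicate, and replicates could not be left out in turn for the same reason. Read depth is unknown and limits any reading of a listed 0.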

Other observations

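A coding site of BTG4 that missed the minimum at GV was among its longest lasting. The site 21791802, with the motif AGATG, had a score of 0.0821 at GV, 0.127 at MII, 0.113 in 2-cell, 0.131 in 4-cell, 0.0526 in 8-cell, 0.126 in 16-cell embryos and 0.201 in morulae. The only 5' untranslated site of BTG4, 21802818, lay near the minimum from GV to the 16-cell stage, at 0.1005 at GV, 0.0878 at MII, 0.0920 in 2-cell, 0.0826 in 4-cell, 0.0884 in 8-cell and 0.107 in 16-cell embryos, and at 0 in morulae and blastocysts. Whether it counts as called at a stage therefore turns on small differences of score.

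Closely spaced CNOT1 sites could differ in their calls. The site 26319700 was called at GV with 0.322, at MII with 0.179, in 16-cell embryos with 0.251 and in morulae with 0.216. The site 26319697, only a few bases from it, had 0.0514 at GV, 0.144 at MII and 0 at every later stage. These sites were chosen after their values had been seen.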
